A study of Mus musculus with 6 samples.

Results

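Complement genes that fibroblasts are known to express were examined in cultured cancer-associated fibroblasts with and without decitabine. The genes were C1s, C2, C3, C4b, Cfb, Cfd and Cd55, chosen by name: every probe of the array whose target carried one of these 7 names was taken, 10 of 45281 probes and 7 of 30854 target names. The 6 plates came from a short explant culture of fibroblasts out of 1 tumour of the pancreas in a KPC-Brca1 mouse, a pancreatic cancer model. In the 3 plates of the DAC group the medium held decitabine (5-aza-dC, DAC) at 2 micromolar for 48 hours, and the 3 plates of the untreated group received no drug. DAC replaces deoxycytidine in newly made DNA and binds DNA methyltransferases irreversibly, so methylation is lost as cells divide. The series was titled for the genes that the drug activates. All plates shared 1 culture, so p-values reflect plate-to-plate spread alone, which may be technical, and 3 arrays a group limit the precision.

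Complement is a cascade of serum and membrane proteins that marks microbes, dying cells and immune complexes. In the classical pathway C1q binds a target and activates the proteases C1r and C1s, C1s cuts C4 and C2, and the fragments form the enzyme that cuts C3. In the alternative pathway factor D, encoded by Cfd, cuts factor B, encoded by Cfb, on C3b, while CD55 takes both C3-cutting enzymes apart on the cell's own membrane. The liver supplies most of these proteins in serum, and fibroblasts, macrophages and fat cells make some of them locally.

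Each array reported 16205 to 17180 probes detected (detection p under 0.01). On the raw scale the untreated arrays were brighter, with a 75th percentile of 114.0 ± 3.0 (SD, n = 3) against 102.1 ± 4.9 for DAC, and levels below are background-corrected and quantile normalized log2 intensities unless called raw. Fibroblast markers were present: 12 of 13 passed the detection filter, among them Col1a1, Dcn, Pdgfra and Vim, and the summed raw intensity of their kept probes was 102704 to 109240 untreated and 94920 to 107155 with DAC. Of these 12 markers 1 was called higher and 3 lower with DAC, beside 14.8% higher and 14.6% lower of all genes tested. Endothelial markers were detected on no array (0 of 6 tested). Of 8 epithelial markers 5 were tested, all of them keratins except Muc1, while Epcam, Cdh1 and Cldn4 were detected on no array.

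Promoter sequence is shown for C1s, the member that fell with DAC, and for 2 members that were not called, because the drug acts on methylation of CpG sites. RefSeq windows of 250 bases before to 50 after the start (GRCm38.p6) matched 4 of the 7 members, C1s, C3, Cfd and Cd55. The 250 bases before the start are given below, 5′ to 3′ in the direction of the gene, with CpG sites in capitals. They lie at chr6:124542360-124542609 for C1s, chr17:57228137-57228386 for C3 and chr1:130462745-130462994 for Cd55, all on the minus strand.
C1s: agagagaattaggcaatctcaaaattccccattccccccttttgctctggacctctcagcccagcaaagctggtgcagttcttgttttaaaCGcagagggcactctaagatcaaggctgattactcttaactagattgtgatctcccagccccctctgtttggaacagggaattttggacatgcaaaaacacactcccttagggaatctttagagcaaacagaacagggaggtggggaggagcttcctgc
C3: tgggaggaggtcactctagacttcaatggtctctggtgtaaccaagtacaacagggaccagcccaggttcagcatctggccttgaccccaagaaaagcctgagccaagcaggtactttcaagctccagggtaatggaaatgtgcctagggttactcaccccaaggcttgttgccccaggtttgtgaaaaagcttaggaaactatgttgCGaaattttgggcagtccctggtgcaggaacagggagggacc
Cd55: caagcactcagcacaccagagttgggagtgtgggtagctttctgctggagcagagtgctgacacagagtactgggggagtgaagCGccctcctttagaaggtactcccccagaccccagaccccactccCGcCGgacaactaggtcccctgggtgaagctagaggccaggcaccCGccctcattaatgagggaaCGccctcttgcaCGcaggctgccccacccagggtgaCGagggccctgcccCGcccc
The C1s window of 300 bases held 1 CpG, as did the window of a second C1s start 38 bases further on. Of 32851 promoter windows 5.4% held fewer and 14.1% held as few or fewer. The C3 window held 3 CpGs, the Cfd window 2 and the Cd55 window 12, against a median of 7 over all windows. Interferon-type elements, taken as 2 copies of GAAA with 2 bases between them (ISRE) and as TTCNNNGAA (GAS) and searched on both strands, were found in none of these windows and in 3.44% and 8.3% of all promoters. A C/EBP-type motif, TTGCNNAA on either strand, occurred 1 time in the first C1s window and 1 time in the C3 window, and in 10.8% of all promoters.

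Among the members, C1s fell with DAC and C2 rose slightly, C3, C4b and Cd55 did not pass the test, and Cfb and Cfd were not detected on any array. Of the 7 members 5 could be tested, of which 1 was called higher and 1 lower (limma, Benjamini-Hochberg adjusted p under 0.05 over all 11518 genes). Over all genes tested 29.5% were called, 14.8% higher and 14.6% lower, and 2 called among 5 tested is too near that background to be a result about the members. The groups did not overlap for 2 of the 5 tested members, against 42.8% of all genes. In these bulk arrays, fewer cells that express a gene and less RNA per cell cannot be told apart.

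**Figure D1:**
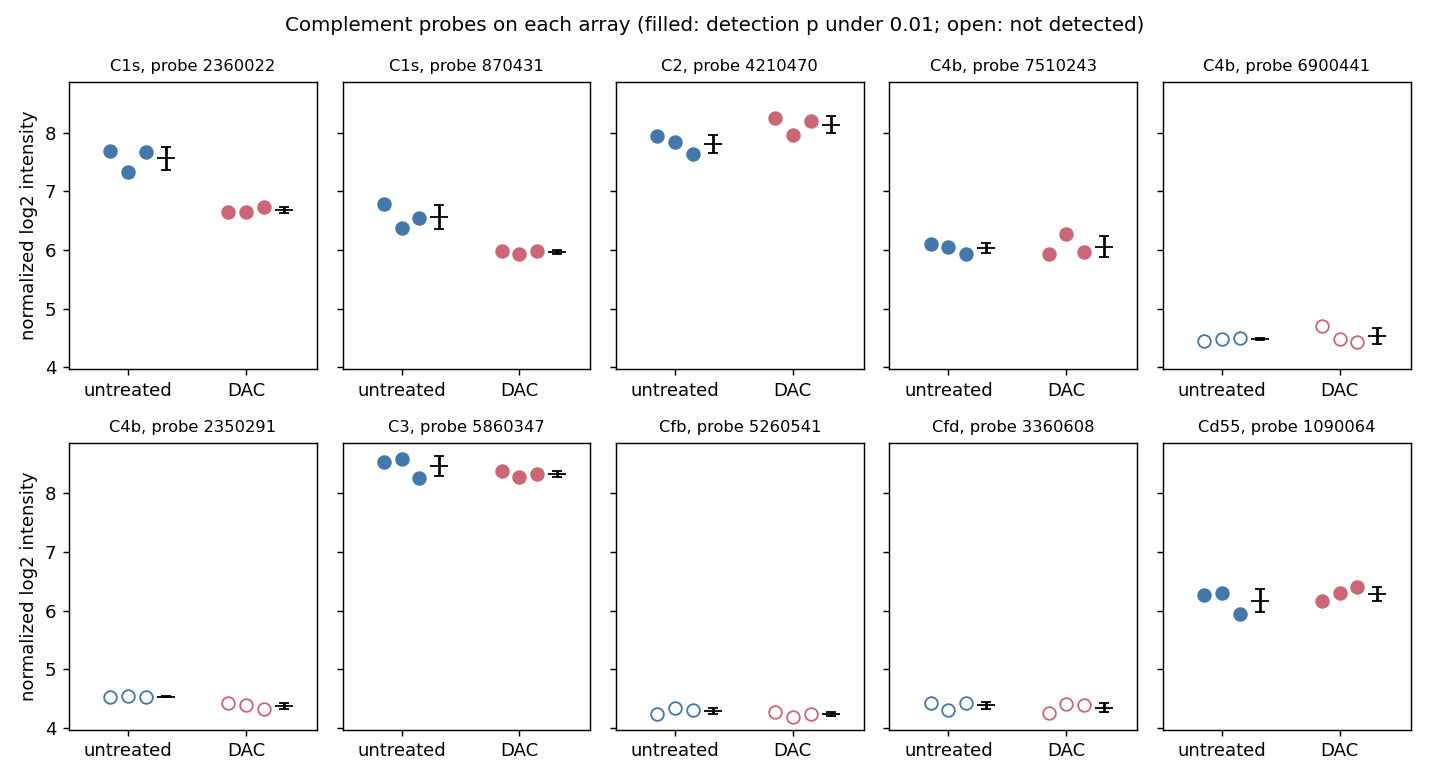
Normalized log2 intensity of the 10 complement probes on each of the 3 untreated (blue) and 3 DAC (red) arrays, with the mean and SD of each group as a black bar; filled points had a detection p under 0.01. Both C1s probes were lower on every DAC array than on any untreated array, and the probes of Cfb and Cfd and 2 of the 3 C4b probes were not detected.

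C1s, the protease of the C1 complex that cuts C4 and C2, gave the largest change. Its brighter probe, 2360022, stood at 7.68, 7.33 and 7.66 on the untreated arrays and at 6.64, 6.64 and 6.74 on the DAC arrays. All DAC values lay below all untreated values, and the DAC arrays lay closer together. The difference was −0.89 on the log2 scale (SE 0.11, 95% interval −1.12 to −0.65), a 1.85-fold lower level with DAC (limma adjusted p = 2.89e-05). Raw intensities of this probe were 245.0, 189.4 and 235.5 untreated and 108.3, 119.1 and 123.5 with DAC, read from 27 to 41 beads with a bead standard error of 4.16% to 5.59% of the intensity. A second C1s probe, 870431, moved the same way. It read 6.78, 6.37 and 6.54 untreated and 5.99, 5.93 and 5.98 with DAC, again without overlap, as for 41.8% of all kept probes. Its difference was −0.60 (SE 0.11), a 1.51-fold lower level (limma adjusted p = 0.00151 over 16883 probes, of which 27.7% were called). The fall of C1s was called under all 16 processing alternatives, with log2 differences from −1.06 to −0.70. In the reference the gene is C1s1, and a related copy, C1s2, lies on the same chromosome 6, so the copy read by the probes is uncertain. Probes of C1ra, which encodes the partner protease C1r, were detected on no array.

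C2, which supplies the protease part of the classical C3-cutting enzyme, was slightly higher with DAC. It stood at 7.94, 7.84 and 7.64 untreated and at 8.25, 7.97 and 8.20 with DAC. The groups were separated only narrowly, by the first untreated array at 7.94 and the second DAC array at 7.97. The difference was 0.33 (SE 0.11, 95% interval 0.09 to 0.58), a 1.26-fold higher level (limma adjusted p = 0.0391). Raw intensities overlapped, with 286.0, 259.6 and 231.8 untreated and 288.2, 273.1 and 306.7 with DAC. The C2 call was lost under 6 of 16 alternatives. Without between-array normalization the difference was 0.18 (adjusted p = 0.273), where the median of all genes lay at −0.111, and with dim probes kept in the test the adjusted p was 0.116. It was also lost without DAC replicate 1 (0.28, adjusted p = 0.143), DAC replicate 3 (0.30, adjusted p = 0.117), untreated replicate 2 (0.35, adjusted p = 0.0720) and untreated replicate 3 (0.25, adjusted p = 0.155). The name C2 also appears among older names of Cfb and Psma1 in the reference, and the probe was assigned by the current symbol.

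C4b, which encodes the C4 protein that C1s cuts, differed little between the groups. Its detected probe, 7510243, stood at 6.10, 6.06 and 5.94 untreated and at 5.93, 6.26 and 5.97 with DAC. The DAC arrays spanned the whole untreated range. The difference was 0.02 (SE 0.11, 95% interval −0.22 to 0.26, limma adjusted p = 0.906). It turned to −0.14 without between-array normalization, −0.08 without DAC replicate 2 and −0.03 without untreated replicate 3, each time without a call. The other C4b probes, 2350291 and 6900441, had detection p-values of 0.0502 to 0.415 and were not tested. C4a, a near-identical neighbour that the reference lists as a transcribed pseudogene, had 2 tested probes. These differed by −0.09 (SE 0.12, limma adjusted p = 0.637 over probes) and 0.09 (SE 0.12, adjusted p = 0.619). On all 3 of these tested C4 probes the second DAC array was the highest of the 6. Which C4 copy each probe reads is uncertain.

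C3, the protein on which all pathways converge, did not pass the test. It stood at 8.53, 8.59 and 8.27 untreated and at 8.39, 8.28 and 8.34 with DAC. The third untreated array was the lowest of the 6, so the groups overlapped. The difference was −0.13 (SE 0.11, 95% interval −0.36 to 0.10, limma adjusted p = 0.402), and the interval holds both no change and a fall of 0.36. Raw C3 intensities were lower on every DAC array (313.1, 336.9 and 334.5) than on any untreated array (417.7, 422.9 and 345.7), as the 75th percentile of the DAC arrays was. Without between-array normalization C3 was at −0.28, still without a call (adjusted p = 0.0881, the lowest over its alternatives). It was −0.06 without untreated replicate 2 and −0.23 without untreated replicate 3.

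Of the 2 alternative pathway factors, neither gave a measurable signal. The probe of Cfb, the protease precursor of that pathway's C3-cutting enzyme, had raw intensities of 34.8, 37.7 and 36.1 untreated and 34.1, 30.1 and 33.3 with DAC. Its detection p-values ran from 0.394 to 0.966, so all 6 arrays were at background. The probe of Cfd, whose product activates factor B and which fat cells express strongly, read 42.6, 36.7 and 40.3 untreated and 33.2, 39.9 and 39.2 with DAC. Its detection p-values were 0.203 to 0.744. Each gene had 1 probe, and background signal is no proof of an absent transcript. Beside Cfd, the fat cell markers Adipoq, Fabp4, Plin1, Lep, Cidec and Retn were detected on no array. Lpl (−1.53, limma adjusted p = 2.67e-07) and Pparg (−0.51, adjusted p = 0.00165), the 2 markers of that list that were tested, were both lower with DAC. Over all genes tested 14.6% were lower, and 2 genes are too few for a result about fat cells.

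Cd55, the membrane regulator that dissociates the C3-cutting enzymes, did not pass the test either. It stood at 6.27, 6.29 and 5.95 untreated and at 6.16, 6.31 and 6.40 with DAC. Only the third untreated array was low, and the groups overlapped. The difference was 0.12 (SE 0.12, 95% interval −0.13 to 0.36, limma adjusted p = 0.491). It was −0.06 without between-array normalization, 0.003 without untreated replicate 3, 0.06 without DAC replicate 3, 0.18 without DAC replicate 1 and 0.18 without untreated replicate 2, and was not called in any of these. The probes of Cd55b, the neighbouring mouse copy of the gene, were detected on no array.

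Beyond the members, few complement genes of the pathway lists could be measured, and those that changed moved in both directions. The 7 lists named 55 genes, of which 54 were on the array and 18 were tested, the 5 tested members included. Of these 18 genes 6 were higher, 2 were lower and 10 were not called, with a median log2 difference of −0.03 against 0.0028 over all genes. Without the members, 5 were higher and 1 lower of 13 tested, beside 14.8% higher and 14.6% lower over all genes. The 5 include C1qb and C1qc, detected on 1 and 2 of 3 untreated arrays and on all 3 DAC arrays. These genes passed the detection filter only with the DAC arrays counted, so the filter favoured a rise for them. Counts this small show nothing particular to these lists.

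**Figure D2:**
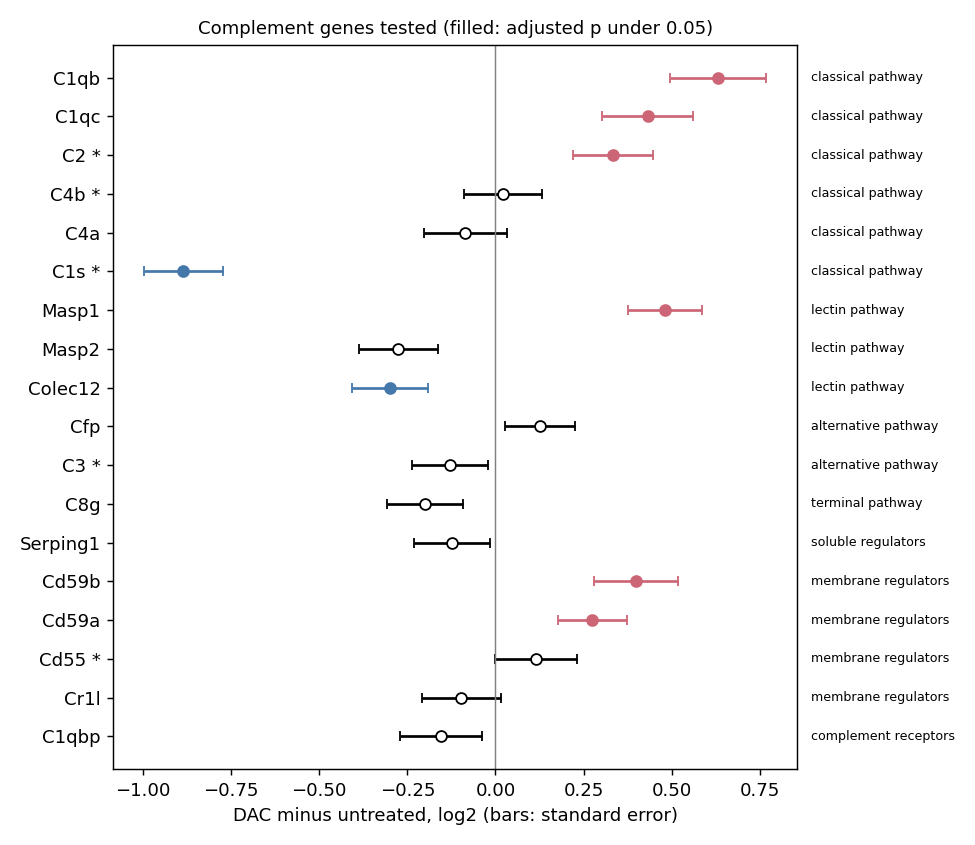
Difference between DAC and untreated arrays (log2, with its standard error) for the 18 tested complement genes, grouped by pathway list; filled points had an adjusted p under 0.05 and an asterisk marks the members. C1s lay farthest below 0, at −0.89, and C1qb farthest above it, at 0.63.

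In the classical pathway list, 3 of 6 tested genes were higher and 1 lower, beside 14.8% higher and 14.6% lower over all genes. Counts this small show nothing particular to the list. The higher genes were C2, whose call was not stable, and 2 genes of C1q chains. C1qb, a chain of the C1q recognition protein, stood at 4.48, 4.82 and 5.03 untreated and at 5.33, 5.61 and 5.28 with DAC. Every DAC value was above every untreated one, but the probe was detected on only 1 of 3 untreated arrays and on all 3 DAC arrays. The fitted difference was 0.63 (SE 0.14, limma adjusted p = 0.00285), and the call was lost (adjusted p = 0.0526) when dim probes were not filtered out. Without background correction and with an offset of 50 the C1qb difference was 0.31, still called. C1qc, another chain, rose from 4.94 ± 0.26 to 5.38 ± 0.14 (SD, n = 3, difference 0.43, limma adjusted p = 0.0206) and was detected on 2 of 3 untreated arrays. Its call was lost under 7 of 15 alternatives. Among them were those without DAC replicate 2 (0.36), untreated replicate 1 (0.30) and untreated replicate 3 (0.43). It was also lost without background correction (0.21) and with an offset of 50 (0.22). The remaining alternative kept only probes detected on all 6 arrays, where neither C1qb nor C1qc could be tested. The third chain gene, C1qa, was detected on no array.

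Most of the tested leukocyte markers were higher with DAC, as C1qb and C1qc were. C1q is made mainly by macrophages and related cells. Of 15 markers of macrophages and other leukocytes 9 were tested, of which 7 were higher and none lower with DAC. Over all genes 14.8% were higher and 14.6% lower. The summed raw intensity of the kept probes of these markers was 1267 to 1335 untreated and 1648 to 1859 with DAC. Cd53 and Csf1r, detected on no untreated array, were at least 2.00-fold and at least 1.33-fold higher. Both passed the detection filter through the DAC arrays alone. Only a rise could therefore be seen for these 2 genes, and their direction adds nothing to the count. The summed intensity above also includes their probes. The other called markers, Laptm5 (1.19), Lyz1 (0.78), Lyz2 (0.68), Coro1a (0.63) and Cd68 (0.36), were detected on all 6 arrays. Ptprc, Adgre1, Tyrobp, Fcer1g and Itgam were detected on no array, and Cd14 (−0.09) and Cd3e (0.33) were not called. The part of such cells in the C1q result was not tested.

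**Figure D3:**
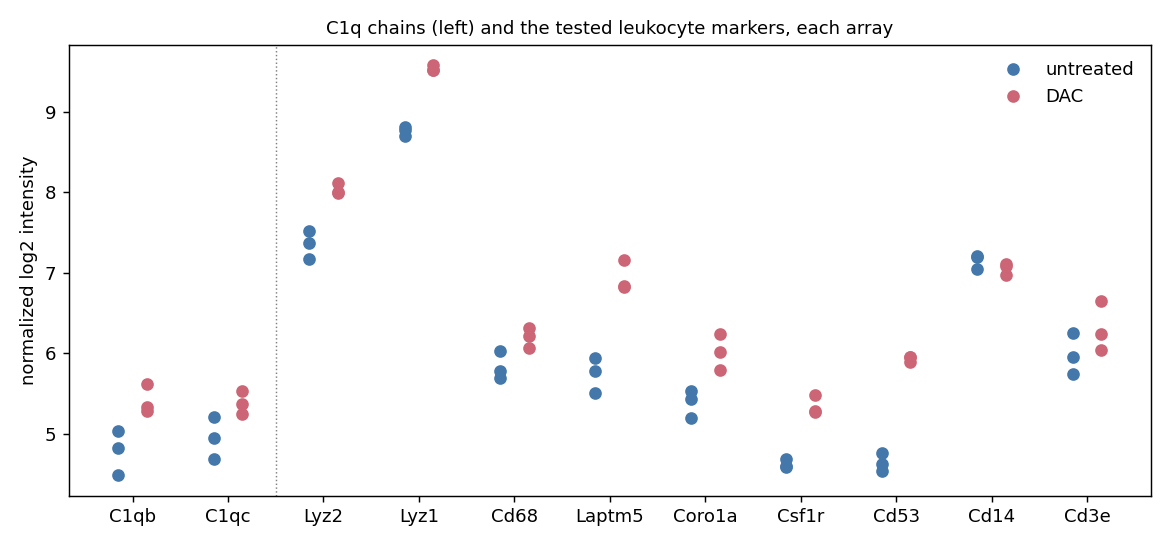
Normalized log2 intensity of the C1q chain genes C1qb and C1qc and of the 9 tested leukocyte markers on each untreated (blue) and DAC (red) array. C1qb and C1qc lay higher on every DAC array, as did 7 of the 9 markers, while Cd14 and Cd3e overlapped between the groups. The groups did not overlap for 42.8% of all genes tested. Cd53 and Csf1r, among these 7, were detected on DAC arrays alone, so only a rise could be seen for them.

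In the lectin list 3 of 9 genes were tested. Masp1, a protease of the lectin pathway, stood at 5.36, 5.31 and 5.28 untreated and at 5.65, 5.97 and 5.77 with DAC. The groups were clearly separated, and the difference was 0.48 (SE 0.11, limma adjusted p = 0.00318), called under all 16 alternatives, but 0.27 without background correction and 0.28 with an offset of 50. Colec12, a scavenger receptor of the collectin family, fell by 0.30 (SE 0.11, limma adjusted p = 0.0488), close to the threshold. Its call was lost under 9 of 16 alternatives, among them those without DAC replicate 2 (−0.25), DAC replicate 3 (−0.28), untreated replicate 2 (−0.33) and untreated replicate 3 (−0.22), and it was at −0.48 without between-array normalization. Masp2 was at −0.28 and was not called (adjusted p = 0.0788).

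Among the regulators, both tested Cd59 genes were higher while Cd55, Serping1 and Cr1l did not pass the test. CD59 stops assembly of the membrane attack complex. Cd59a went from 11.10 ± 0.05 to 11.38 ± 0.09 (SD, n = 3, 1.21-fold, limma adjusted p = 0.0477). Cd59b went from 7.14 ± 0.22 to 7.54 ± 0.11 (1.32-fold, limma adjusted p = 0.0206). Neither call was stable. That of Cd59a was lost under 7 of 16 alternatives and without every single array except DAC replicate 2 (0.23 to 0.31 where lost), and it was at 0.43 with 75th percentile scaling. That of Cd59b was lost under 6 of 16, among them those without DAC replicate 1 (0.37), DAC replicate 2 (0.36), untreated replicate 1 (0.36) and untreated replicate 3 (0.31), and without between-array normalization (0.23). Serping1, the C1 inhibitor that inactivates C1r and C1s, was at −0.12 (SE 0.11, limma adjusted p = 0.429), and Cr1l, the mouse membrane regulator also called Crry, at −0.10 (SE 0.11, adjusted p = 0.564). Of the soluble regulators only Serping1 was tested, and the probes of Cfi and Vtn were detected on no array. In the alternative pathway list, Cfp (properdin, which stabilizes that pathway's enzyme) was at 0.13 and was not called (adjusted p = 0.364). In the terminal pathway only C8g was tested (−0.20, adjusted p = 0.176), and of 10 receptors only C1qbp (−0.15, adjusted p = 0.346).

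Transcription factors of the interferon response were higher with DAC, and 1 acute phase factor was lower. Both kinds of factor can drive complement genes in other settings. Of 17 listed inducers of complement transcription 10 were tested, of which 5 were higher and 1 lower, with a median log2 difference of 0.40. Over all genes 14.8% were higher and 14.6% lower, with a median of 0.0028. The interferon-response factors Irf7, Stat2 and Irf9 were higher by 2.24 (SE 0.16), 1.05 (SE 0.10) and 0.93 (SE 0.10), with limma adjusted p-values of 8.39e-08, 1.60e-06 and 5.37e-06. Cebpb, a factor of the acute phase response, was lower by 0.70 on the log2 scale, from 12.24 ± 0.09 to 11.54 ± 0.0045 (limma adjusted p = 7.49e-05). Cebpd (0.05), Nfkb1 (−0.04) and Rela (0.16) were not called. Under 75th percentile scaling Nfkb1 turned to 0.03, still not called, and Rela was called higher at 0.31. The cytokine genes Il1a, Il1b, Il6, Tnf, Ifnb1 and Ifng were detected on no array.

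C2, Cfb, C4b and C3 share chromosome 17, on which 4 of the 7 members lie. Cfb and C2 are next to each other among the protein-coding genes of the reference, C4b lies 6 genes before Cfb, and C3 lies far away. Of 19 listed neighbours within 11 protein-coding genes of Cfb on either side, 14 were tested, and none was higher and 2 were lower with DAC. Over all genes 14.8% were higher and 14.6% lower, so 2 lower of 14 neighbours is near that background. The median difference of the 14 was −0.01. Ehmt2, a histone methyltransferase gene, was at −0.46 (SE 0.10, limma adjusted p = 0.00374) and Lsm2 at −0.44 (SE 0.10, adjusted p = 0.00322). Ehmt2 was at −0.74 without DAC replicate 2, −0.67 without DAC replicate 3 and −0.58 with the mean of its probes. The brightest probe was chosen again in each alternative. The values without these arrays may therefore come from another Ehmt2 probe. Lsm2 was at −0.16 and not called with the mean of its probes. Atf6b (−0.12), Dxo (0.12) and Fkbpl (0.05) were not called.

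The genes whose values over the 6 arrays were most like those of the called members were found by the root mean square difference of mean-centred log2 values, over 9562 other genes with a reference symbol. For C1s these were Pclaf (0.066), Aif1l (0.068) and Ugt1a6b (0.078), which differed by −0.81, −0.80 and −0.87 between the groups. For C2 they were Pacs1 (0.025), Gpatch4 (0.033) and Ppp1r2 (0.033), which differed by 0.33, 0.31 and 0.32.

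**Figure D4:**
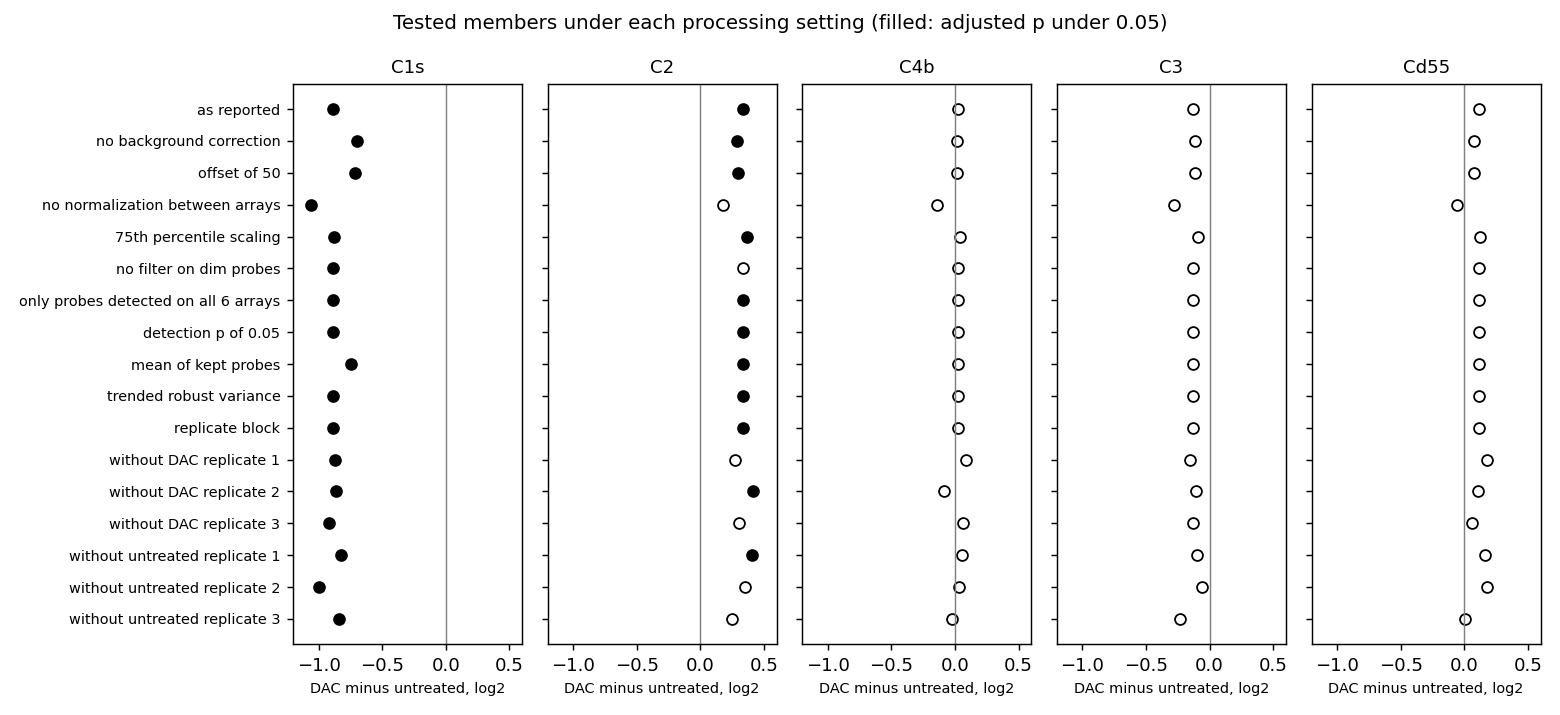
Difference between DAC and untreated arrays (log2) for the 5 tested members as reported and under the 16 processing alternatives; filled points had an adjusted p under 0.05. C1s stayed between −1.06 and −0.70 and was called under each setting, C2 lost its call under 6, and C3, C4b and Cd55 were called under none.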

How the data were processed

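Per the labels' protocols, Trizol was used to extract total RNA and an Ambion kit to prepare biotinylated cRNA. Columns were assigned by the sample names in the labels. The deposited table gives for each probe and array a mean bead intensity, not normalized, a detection p-value, the number of beads (a count) and, per the file headers, the standard error of the bead signal. The scanner software and the build behind the probes were not given in the sources used here. A second deposited table of intensity values shared 0 probe identifiers with the first and was not used here.

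With limma 3.58.1 (R 4.3.3), normexp corrected the background using the detection p-values, 16 was added and log2 values were quantile normalized. The filter kept 16883 probes that had p under 0.01 on 3 or more arrays, the brightest of them stood for its gene (11518 genes), and groups were compared with lmFit and eBayes, with Benjamini-Hochberg adjustment over all genes. The fit over all kept probes gave the values of further probes. Target names were matched to symbols of GRCm38.p6 for 81% of probes. For a gene below detection in 1 group the fold is a bound against the lowest detected signal. The pipeline was tested on simulated intensities. The members and lists were chosen with earlier results of these data known. The genes named are all members, the called genes of the complement lists, up to 5 called and up to 3 uncalled genes of the inducer and neighbour lists, and the 3 genes most like each called member; other genes were named after their values were seen, and a gene that the rule takes is not reported here. Alternatives changed background, offset, normalization, filter, probe choice, variance model, block and the arrays used. Where a gene had several kept probes, its brightest probe was chosen again in each alternative.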

Additional observations from a re-analysis of the deposited data

How the results depend on the processing

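The 16 alternatives left the fall of C1s called throughout, and the count of all genes called stayed between 2587 and 3983 against 3394. The number of members called was 1 in place of 2 both without between-array normalization and without the filter on dim probes, and 1 to 2 with single arrays left out; the member lost was C2 each time. Without between-array normalization C4b turned to −0.144, Cd55 to −0.059, Cebpd to −0.113, Dxo to −0.027 and Fkbpl to −0.107, and with 75th percentile scaling Nfkb1 turned to 0.033; none of these was called before or after, and the cause was not tested. With single arrays left out, C4b ran from −0.083 to 0.084, Cebpd from −0.023 to 0.148 and Fkbpl from −0.098 to 0.132. The brightest probe was chosen again in each run, so the range of Fkbpl may mix probes. Of all called genes 50.3% were higher, 26.5% without between-array normalization (median of all genes −0.111) and 63.3% with 75th percentile scaling (0.071). With the replicate number as a block, 3983 genes, 2 members and 3 member probes were called, so the block changed no member's call. Deviations from the group means correlated at 0.317, 0.279 and −0.033 between samples numbered 1, 2 and 3, so not every sample correlated best with its own number, and the numbers were not treated as pairs. Changes of dim probes are compressed by the offset, and with an offset of 50 that of C1s was −0.71. Cfb, Cfd and 2 C4b probes lay at background, where no change could be measured.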
